A study of Mus musculus with 2 samples.

Results

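The genes of the potassium channels, which encode the pores that let potassium cross the cell membrane and the accessory subunits of these pores, were read in single cells of the optic nerve of Nf1-OPG mice. The members were all genes whose symbol starts with Kcn, 99 of the 32285 genes counted, and no measured value entered their choice. Of these, 40 encode voltage-gated pore subunits (Kcna to Kcnd, Kcnf to Kcnh, Kcnq, Kcns and Kcnv), 15 encode inward rectifiers (Kcnj) and 14 encode tandem-pore background channels (Kcnk). A further 8 encode pores opened by calcium or sodium (Kcnma1, Kcnn, Kcnt and Kcnu1), 17 encode accessory subunits (Kcnab, Kcne, Kcnip, Kcnmb and Kcnrg) and 5 are noncoding or opposite-strand RNAs named after a channel gene.

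Nf1-OPG mice (Nf1 flox/mut; GFAP-Cre, on a C57BL/6 background) lose Nf1 in cells in which the GFAP promoter drives Cre, carry a mutant Nf1 copy in every other cell, and form low-grade gliomas of the optic nerve. The 2 droplet libraries, C-ON and FMC_new, were made from optic nerves of mice aged 12 weeks, and the labels describe a suspension pooled from 10 mice. The labels give the same genotype for both libraries and name no treatment, so the series holds 1 group with n = 2 and no contrast between groups. Beside this, the title of the first library holds the word control and that of FMC_new the words FMC new, and the sources used here do not explain either.

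Potassium channels set the resting potential of a cell and bring its membrane back after a depolarization. In white matter, firing axons release potassium, which glia take up through inward rectifiers and pass on through gap junctions. Oligodendrocytes and their precursors, astrocytes, microglia and lymphocytes each carry known sets of potassium channels, and endocrine cells of the pituitary are electrically excitable and use many of the channels of neurons.

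Of all barcodes, 8834 cells of C-ON and 16818 cells of FMC_new passed the filters, with medians of 6810.5 and 4676 UMIs per cell. A UMI is a tag that marks 1 captured molecule. The cells fell into 37 clusters, of which 24 were assigned to 14 cell classes by marker genes, and 13 clusters with 6395 cells were assigned to none. The tumor-like class held 214 cells of C-ON and 1358 of FMC_new, the oligodendrocyte-like class 5319 and 2060, the microglia-like class 175 and 1117 and the T cell-like class 894 and 2854. The astrocyte-like and pituitary-like classes held 19 cells each in C-ON, under the minimum of 20 cells, and 212 and 1186 in FMC_new, so both are given for FMC_new alone. The pituitary lies outside the labelled tissue, and its growth hormone gene Gh had 1 UMI in all barcodes of C-ON and 3216515 in those of FMC_new. All 10 markers of each of the tumor, oligodendrocyte, astrocyte, microglia and pituitary lists, and all 8 of the T cell list, were at 10 CPM or more in their own class. The same lists named the classes, so this is no independent check. All 10 oligodendrocyte markers also reached this limit in tumor-like cells of both libraries. CPM are the UMIs of a gene in the cells of a class for every 1000000 UMIs of all genes in these cells. The tumor markers, such as Pdgfra and Cspg4, also mark normal oligodendrocyte precursor cells, and the 2 cannot be told apart here. Genes of other classes were found in each class as well. The 10 oligodendrocyte markers summed to 12331 CPM in T cell-like cells of C-ON and 4417 CPM in those of FMC_new, against 72267 and 64748 CPM in oligodendrocyte-like cells. For the channels high in oligodendrocytes, levels in other classes are set below beside those of other oligodendrocyte genes. The part of RNA from other classes in these levels was not measured. The libraries shared 296 cell barcodes.

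Intervals in parentheses are exact 95% intervals (Poisson for levels, Clopper-Pearson for shares of cells) and cover counting error only. The 2 libraries give the spread between samples, and where a pair of values stands without library names, C-ON comes first. The chance of finding a UMI rises with depth, and the median depth was 8070 and 7850.5 UMIs per cell in oligodendrocyte-like, 5303.5 and 5335.5 in tumor-like, 3311.5 and 3230 in T cell-like and 2875 and 4173.5 in ILC2-like cells. An exact permutation test over 2 libraries cannot go below p = 0.5, so no test was made, and classes are compared by their levels in each library. The classes came from clusters of the same cells, and the Kcn genes were left out of the genes used to cluster.

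The promoters of 3 members are shown, since these members had the highest level of their pore family in tumor-like cells (Kcnd2), oligodendrocyte-like cells (Kcnj10) and T cell-like cells (Kcnn4). The sequences are RefSeq promoters on GRCm38.p6, from 250 bases before to 50 bases after the start of transcription, read 5′ to 3′ on the strand of the gene. Capitals mark a SOX core (ACAAAG) or an ETS core (AGGAAG), short motifs bound by factors of glia and of lymphocytes, on either strand, and the E-box CAGCTG was searched as well. The Kcnd2 promoter lies at chr6:21215096-21215395, + strand, that of Kcnj10 at chr1:172340960-172341259, + strand, and that of Kcnn4 at chr7:24370013-24370312, + strand.
Kcnd2: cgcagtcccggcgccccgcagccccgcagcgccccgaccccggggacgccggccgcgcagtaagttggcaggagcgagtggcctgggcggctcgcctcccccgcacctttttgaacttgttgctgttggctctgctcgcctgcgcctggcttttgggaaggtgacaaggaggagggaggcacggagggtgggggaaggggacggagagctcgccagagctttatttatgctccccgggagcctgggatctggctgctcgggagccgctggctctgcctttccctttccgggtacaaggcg
Kcnj10: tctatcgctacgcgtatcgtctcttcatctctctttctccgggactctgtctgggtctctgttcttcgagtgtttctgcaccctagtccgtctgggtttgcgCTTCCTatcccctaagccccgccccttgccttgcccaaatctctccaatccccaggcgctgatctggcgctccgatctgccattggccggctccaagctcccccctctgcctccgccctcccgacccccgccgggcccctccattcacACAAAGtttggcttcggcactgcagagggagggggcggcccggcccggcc
Kcnn4: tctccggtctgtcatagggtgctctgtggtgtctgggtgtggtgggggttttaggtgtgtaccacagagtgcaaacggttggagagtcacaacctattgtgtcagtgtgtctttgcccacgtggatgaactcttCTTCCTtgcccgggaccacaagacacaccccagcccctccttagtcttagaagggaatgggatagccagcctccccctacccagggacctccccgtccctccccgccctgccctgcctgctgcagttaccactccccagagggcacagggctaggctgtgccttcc

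None of the 3 motifs was found in the Kcnd2 window. The Kcnj10 window held 1 SOX core and 1 ETS core, and the Kcnn4 window held 1 ETS core. RefSeq promoters were matched for 72 of the 99 members, with 97 promoters in all. The ETS core stood in 37 of these 97 promoters (38.1%) and in 35.4% of 32851 promoters of all genes, the SOX core in 15 (15.5%, against 18.7%) and the E-box in 24 (24.7%, against 16.3%). These are matches of letters, and several promoters come from the same gene.

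Of the 99 members, 95 had a UMI in the kept cells. Kcnj5, Kcnk15, Kcnk16 and Kcns2 had none. A member was counted in a class when it was at 10 CPM or more in each library with at least 20 cells of the class, and 57 of the 95 detected members (60.0%) were counted in at least 1 class, against a background of 54.6% of 26077 detected genes. Potassium channel genes were most numerous in tumor-like, astrocyte-like and pituitary-like cells, with 30, 30 and 29 members (31.6%, 31.6% and 30.5% of the 95). The background over all genes was 37.4%, 41.8% and 37.2% in these 3 classes, and the shares of the members lay near it. Only 8 members (8.42%, background 30.9%) were counted in oligodendrocyte-like cells, 6 (6.32%, background 30.3%) in microglia-like cells and 6 (6.32%, background 30.4%) in T cell-like cells. The shares were thus well under the background in these 3 classes. The other classes, at 4 to 10 members each, were also under theirs, with backgrounds of 33.2% (fibroblast-like), 29.8% (plasmacytoid dendritic cell-like), 28.9% (NK cell-like), 28.8% (B cell-like), 27.9% (neutrophil-like), 27.1% (dendritic cell-like), 26.5% (ILC2-like) and 18.6% (plasma cell-like). C-ON alone had 11 members at the limit in its T cell-like cells, 5 more than the count over both libraries. With the limit on mitochondrial UMIs at 10%, 22 pituitary-like cells of C-ON entered the count and it fell from 29 to 14.

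A member was called higher in a class when it was also at least 4 times its level in every other class, in each library. This held for 11 of the 95 members (11.6%, background 6.38%). In tumor-like cells these were Kcnip1, Kcnh5 and Kcnk10 (3 members, background 0.748%), in astrocyte-like cells Kcnh1, Kcnt1, Kcnn3, Kcnmb1 and Kcne1l (5 members, background 1.37%), in pituitary-like cells Kcnh7 and Kcnmb2 (background 0.836%) and in fibroblast-like cells Kcne4 (background 0.863%). No member was called higher in oligodendrocyte-like (background 0.357%), microglia-like (0.33%) or T cell-like cells (0.134%). The same held for B cell-like (0.0652%), ILC2-like (0.13%), NK cell-like (0.111%), dendritic cell-like (0.123%), neutrophil-like (0.736%), plasma cell-like (0.265%) and plasmacytoid dendritic cell-like cells (0.318%). With C-ON alone, the calls in tumor-like cells rose to 16, as the astrocyte-like and pituitary-like classes are then not compared.

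**Figure D1:**
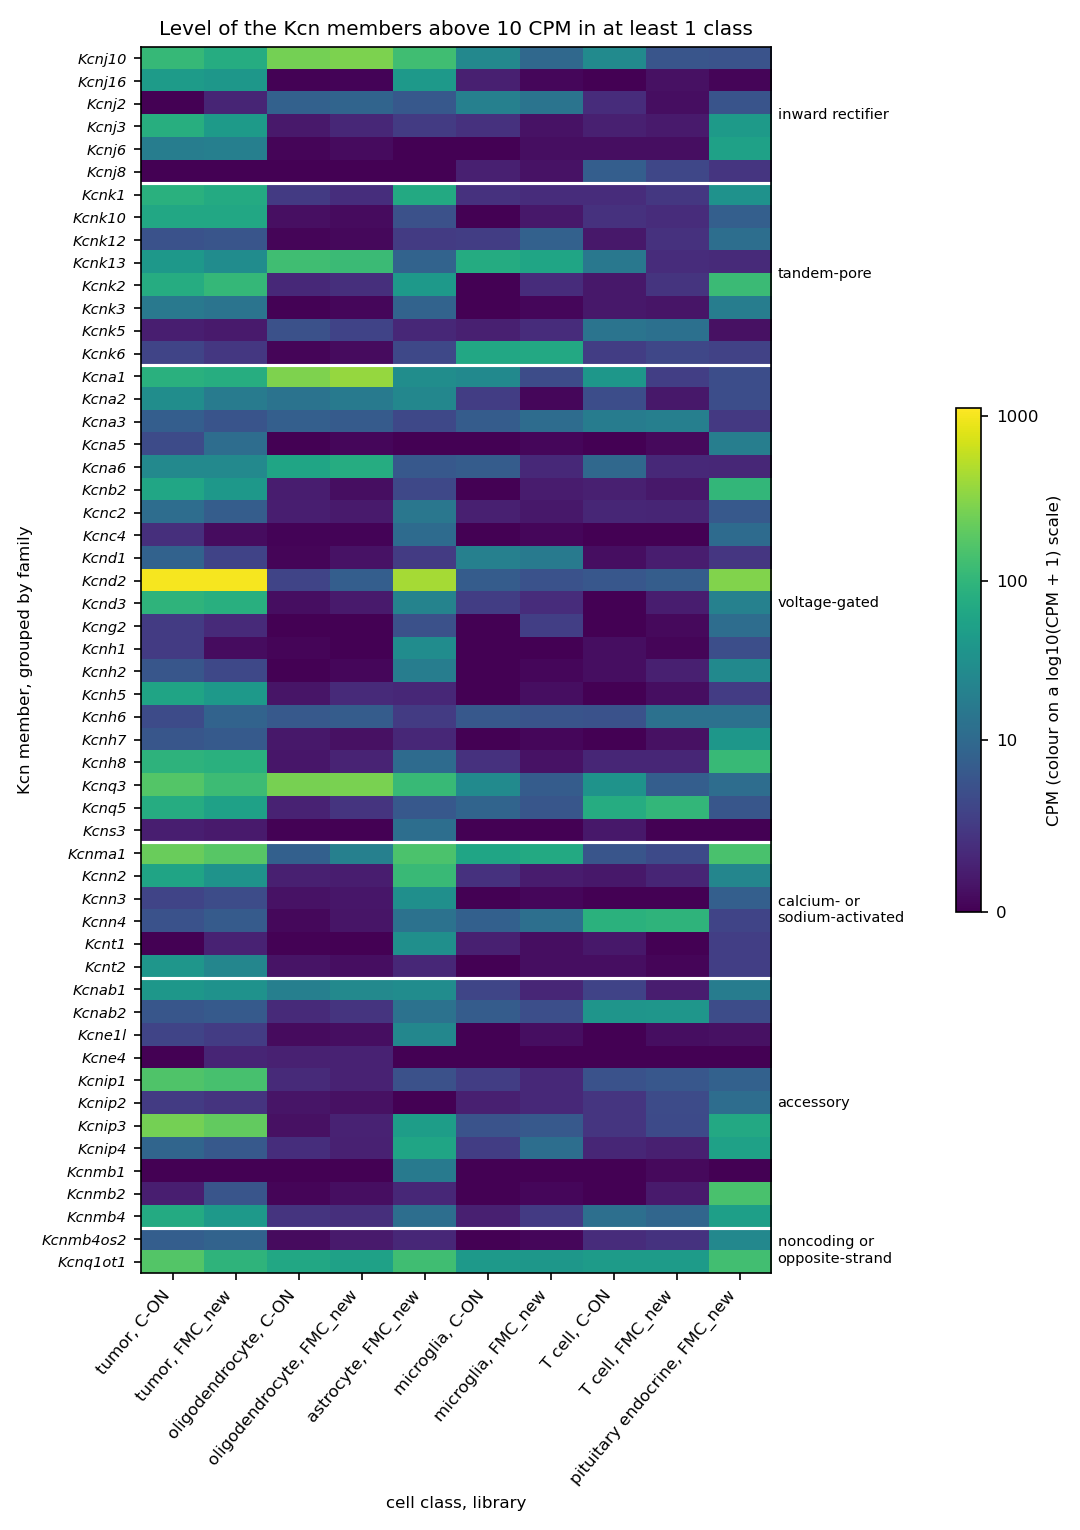
Level of 54 of the 57 members counted in at least 1 class (rows, grouped by type of channel) in 6 cell classes (columns, by library where the class has at least 20 cells), with colour as CPM on a log10(CPM + 1) scale. Kcnd2 in tumor-like cells is the highest level. Tumor-like, astrocyte-like and pituitary-like cells hold 30, 30 and 29 of the 95 detected members above the limit of 10 CPM (31.6%, 31.6% and 30.5%). The backgrounds over all genes are 37.4%, 41.8% and 37.2%. The other 3 classes hold 8, 6 and 6, with backgrounds of 30.9%, 30.3% and 30.4%.

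Among the inward rectifiers, 6 of 15 were counted in at least 1 class (background 54.6%), 4 of them in tumor-like cells (background 37.4%). Kcnj10, the channel through which glia take up potassium (chr1:172341210-172374085, + strand, GRCm38), was at 259.7 CPM (255 to 264) in C-ON and 278 CPM (271 to 287) in FMC_new in oligodendrocyte-like cells, with a UMI in 77.2% of cells in C-ON and 74.2% in FMC_new. It was at 131 CPM (107 to 157) in astrocyte-like cells of FMC_new, and at 110.2 CPM (92.6 to 130.3) in C-ON and 75.6 CPM (69.5 to 82.1) in FMC_new in tumor-like cells. Kcnj10 was thus highest in oligodendrocyte-like cells among the classes compared in each library, and astrocyte-like cells were compared in FMC_new alone. Its levels in oligodendrocyte-like cells of the 2 libraries lay close together although the intervals did not overlap. In T cell-like cells, which should lack it, Kcnj10 was at 27.6 CPM in C-ON and 5.41 CPM in FMC_new, with a UMI in 7.16% and 1.72% of cells.

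Kcnj16, a subunit that joins Kcnj10 and makes the channel sensitive to pH, was nearly absent from oligodendrocyte-like cells, with 2 UMIs in C-ON and 1 in FMC_new (0.0436 and 0.059 CPM). It was at 46.7 CPM (35.4 to 60.3) in C-ON and 40.5 CPM (36 to 45.3) in FMC_new in tumor-like cells and at 43.5 CPM (30.6 to 59.96) in astrocyte-like cells of FMC_new, and these intervals overlapped. Kcnj10 and Kcnj16 were therefore found together in tumor-like cells of both libraries and astrocyte-like cells of FMC_new, and Kcnj10 with almost no Kcnj16 in oligodendrocyte-like cells of both libraries.

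The G protein-gated rectifiers Kcnj3 and Kcnj6, which slow excitable cells on signals from receptors, were counted in tumor-like and pituitary-like cells. Kcnj3 was at 79.7 CPM in C-ON and 44.7 CPM in FMC_new in tumor-like cells and 45 CPM in pituitary-like cells of FMC_new. Kcnj6 was at 18.5 CPM in C-ON and 19.8 CPM in FMC_new in tumor-like cells and 54 CPM in pituitary-like cells. Kcnj2, a rectifier that holds the resting potential, was the member of this family counted in microglia-like cells (20.4 CPM in C-ON and 13.8 CPM in FMC_new), although it was higher in fibroblast-like cells (44.5 CPM in C-ON and 53.9 CPM in FMC_new). Kcnj8, the pore of an ATP-sensitive channel, exceeded the limit in NK cell-like cells, at 27 CPM (14 to 47.2) in C-ON and 33.2 CPM (23 to 46.5) in FMC_new, and was at 7.05 CPM in C-ON and 3.51 CPM in FMC_new in T cell-like cells. Abcc9, with which Kcnj8 forms the channel of vascular muscle, had no UMI in T cell-like cells of either library.

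Of the 14 tandem-pore channels, which conduct at rest, 8 were counted in at least 1 class (background 54.6%) and 5 in tumor-like cells (background 37.4%). Kcnk10 and Kcnk2, channels opened by membrane stretch and lipids, were both high there. Kcnk10 was at 66.8 CPM (53.2 to 82.8) in C-ON and 66.6 CPM (60.8 to 72.7) in FMC_new in tumor-like cells, with overlapping intervals, and at 0.327 CPM in C-ON and 0.236 CPM in FMC_new in oligodendrocyte-like cells. Its next highest level was in dendritic cell-like cells, and the fold over these was 8.06 (4.17 to 17.4) in C-ON and 8.19 (5.78 to 12) in FMC_new. Kcnk2 was at 76.4 CPM (61.8 to 93.4) in C-ON and 106 CPM (99.2 to 114) in FMC_new in tumor-like cells and was slightly higher in pituitary-like cells of FMC_new, at 120.3 CPM (114 to 127). Kcnk1, a weak background channel, followed at 84.5 CPM in C-ON and 72 CPM in FMC_new in tumor-like, 69.4 CPM in astrocyte-like and 34.9 CPM in pituitary-like cells.

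Kcnk13 and Kcnk6 were the tandem-pore channels of microglia-like cells. Kcnk13, known as the background potassium channel of microglia, was at 73.9 CPM (59.2 to 91.1) in C-ON and 61.2 CPM (55.5 to 67.2) in FMC_new in microglia-like cells and at 129 CPM (126 to 133) in C-ON and 119 CPM (114 to 124) in FMC_new in oligodendrocyte-like cells. The intervals of the 2 libraries overlapped in microglia-like cells and lay close together in oligodendrocyte-like cells, while in T cell-like cells Kcnk13 was at 15.5 CPM in C-ON and 1.42 CPM in FMC_new. Kcnk6 was at 66.2 CPM (52.4 to 82.7) in C-ON and 68.8 CPM (62.8 to 75.2) in FMC_new in microglia-like cells, with overlapping intervals, and at 2.54 CPM in C-ON and 3.42 CPM in FMC_new in T cell-like cells. Its next highest class was dendritic cell-like, and the fold was 2.35 (1.55 to 3.63) in C-ON and 2.94 (2.36 to 3.69) in FMC_new.

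Kcnk5, a channel opened by alkaline medium and cell swelling, was the tandem-pore channel of T cell-like cells (13.8 CPM in C-ON and 12.3 CPM in FMC_new). It was several times higher in fibroblast-like cells (109.7 CPM in C-ON and 78.8 CPM in FMC_new) and was at 45.5 CPM in C-ON and 24.3 CPM in FMC_new in ILC2-like cells, a class of innate lymphocytes. The acid-sensitive Kcnk3 was at 16.1 CPM in C-ON and 14 CPM in FMC_new in tumor-like cells and 18.5 CPM in pituitary-like cells, where Kcnk12 also exceeded the limit at 11.7 CPM.

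Voltage-gated channels made up the largest family, with 24 of 40 members counted in at least 1 class (background 54.6%). In tumor-like, astrocyte-like and pituitary-like cells 13 each were counted, against backgrounds of 37.4%, 41.8% and 37.2%. The Kcnd genes encode pores of the A-type current, a fast transient current known from oligodendrocyte precursors and neurons. In tumor-like cells Kcnd2, Kcnd3 and the accessory Kcnip1 and Kcnip3 were counted, while Kcnd1, Kcnip2 and Kcnip4 were under the limit. Kcnd2 (ENSMUSG00000060882, chr6:21215503-21729805, + strand, GRCm38), was at 1015 CPM (959 to 1072) in C-ON and 1005 CPM (982 to 1028) in FMC_new in tumor-like cells, with a UMI in 83.6% of cells in C-ON and 79.6% in FMC_new. This was the highest level of any member in any class, and the intervals of the 2 libraries overlapped. With each cell thinned to 1000 UMIs, 46.7% and 53.1% of tumor-like cells had a Kcnd2 UMI. In T cell-like cells, which should lack it, 2.13% and 2.35% of cells had one before thinning (5.64 and 6.84 CPM).

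Kcnd2 was not restricted to tumor-like cells. In FMC_new it was at 435 CPM (392 to 482) in astrocyte-like and 295 CPM (285 to 305) in pituitary-like cells, with a UMI in 33.5% and 65.7% of cells. The astrocyte-like level thus came from a minority of the cells of that class. Of the astrocyte-like cells of FMC_new, 21.7% held at least 5 markers of another class. The fold of tumor-like over astrocyte-like cells was 2.31 (2.08 to 2.57). The 10 tumor markers summed to 1360.3 CPM in these astrocyte-like cells against 9703 CPM in tumor-like cells, so the share of the Kcnd2 level in astrocyte-like cells (435 of 1005 CPM) was larger than that of the tumor markers. The part of tumor RNA in it was not tested further. The related pore Kcnd3 was at 96.6 CPM in C-ON and 82.7 CPM in FMC_new in tumor-like cells, 22.3 CPM in astrocyte-like and 20.8 CPM in pituitary-like cells. Kcnd1, the remaining pore of this group, was counted in microglia-like cells alone of the 6 classes read here, at 20.4 CPM (13.1 to 30.3) in C-ON and 16.5 CPM (13.6 to 19.8) in FMC_new.

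The Kcnip genes encode calcium-binding proteins that attach to the Kcnd pores, bring them to the membrane and slow their inactivation. Kcnip3, which is also known as a transcriptional repressor, was at 256 CPM (229 to 286) in C-ON and 206 CPM (195 to 216) in FMC_new in tumor-like cells, above 69.1 CPM in pituitary-like and 49.4 CPM in astrocyte-like cells. Its fold over pituitary-like cells in FMC_new was 2.97 (2.73 to 3.25). Kcnip1 was at 159 CPM (138 to 183) in C-ON and 145 CPM (136 to 154) in FMC_new in tumor-like cells, with a UMI in 48.1% of cells in C-ON and 42.8% in FMC_new. It was next highest in ILC2-like cells, on 1 UMI in C-ON and 3 in FMC_new, which gives folds of 14 (2.48 to 556) and 13.9 (4.75 to 67.6) with wide intervals. In T cell-like cells Kcnip1 was at 4.79 and 5.7 CPM, with a UMI in 1.57% and 2% of cells. Kcnip4 was counted in astrocyte-like (61.1 CPM) and pituitary-like cells (54 CPM) and Kcnip2 in pituitary-like cells (11.2 CPM).

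Dpp6 and Dpp10, membrane proteins that join the same Kcnd and Kcnip complexes but have no Kcn symbol, were likewise highest in tumor-like cells. Dpp6 was at 309.8 CPM in C-ON and 231 CPM in FMC_new in tumor-like cells, 80.2 CPM in pituitary-like and 51.7 CPM in astrocyte-like cells. Dpp10 was at 173 CPM in C-ON and 119.5 CPM in FMC_new in tumor-like and 16.8 CPM in pituitary-like cells.

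**Figure D2:**
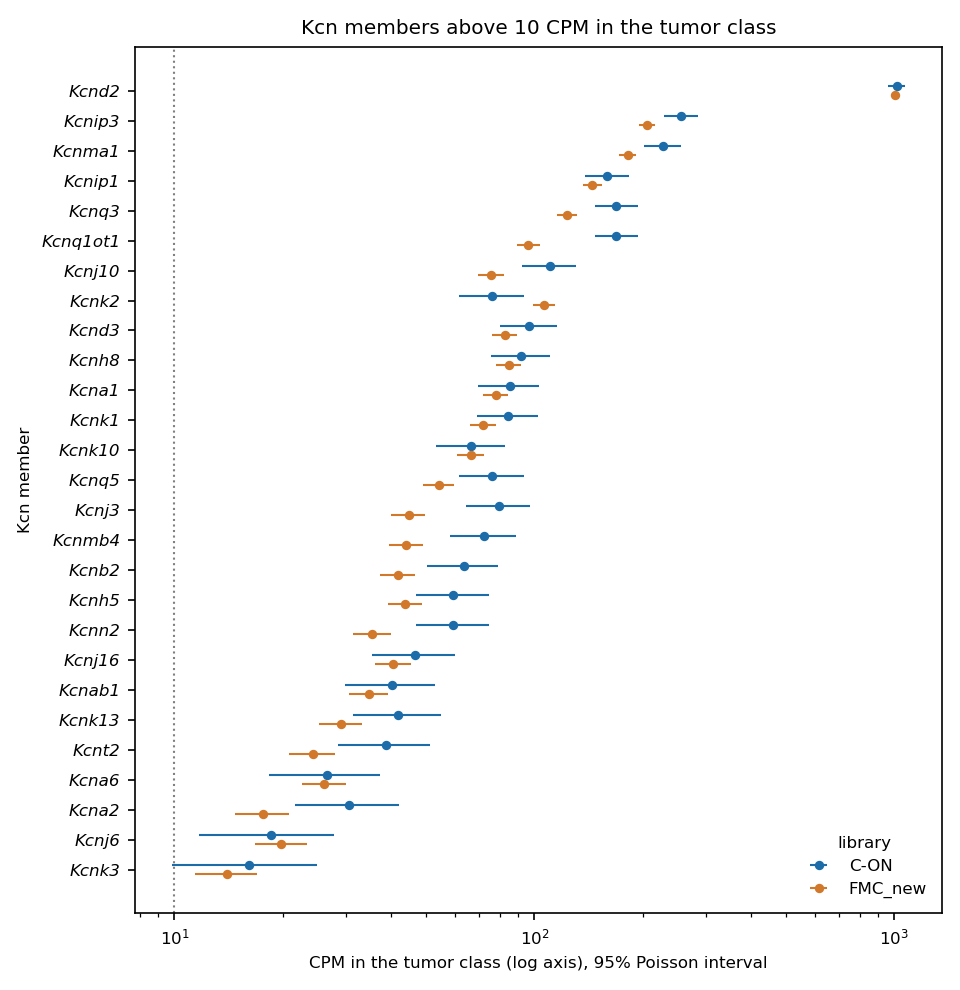
Level in CPM (log axis) of 27 of the 30 members counted in tumor-like cells, by library, with exact 95% Poisson intervals as bars and the limit of 10 CPM as a dotted line. Kcnd2 stands apart at 1015 and 1005 CPM, followed by Kcnip3 (256 and 206 CPM) and Kcnma1 (227 and 182 CPM).

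Of the Kcna genes, voltage-gated channels known best from the axon beside the nodes of Ranvier, Kcna1, Kcna6 and Kcna2 were counted in oligodendrocyte-like cells. Kcna1 was at 291 CPM (286 to 296) in C-ON and 369 CPM (359.9 to 378) in FMC_new, with a UMI in 81.1% of cells in C-ON and 84.8% in FMC_new (chr6:126640397-126646384, - strand, GRCm38). Its intervals did not overlap between the libraries, and FMC_new was the higher. Tumor-like cells were next, at 85.3 CPM in C-ON and 78.1 CPM in FMC_new, and the fold over these was 3.41 (2.82 to 4.17) in C-ON and 4.72 (4.34 to 5.15) in FMC_new, on both sides of the limit of 4. Kcna6 was at 60.4 CPM (58.2 to 62.7) in C-ON and 76.9 CPM (72.8 to 81.2) in FMC_new in oligodendrocyte-like and 26.6 and 26.1 CPM in tumor-like cells. Kcna2 was low in oligodendrocyte-like cells (13.4 and 16.4 CPM) and somewhat higher in tumor-like cells (30.6 and 17.6 CPM). In T cell-like cells Kcna1 was at 40.6 CPM in C-ON and 2.66 CPM in FMC_new, with a UMI in 7.16% and 0.736% of cells.

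Kcna3, the voltage-gated channel that lymphocytes are known for, was one of the 6 members counted in T cell-like cells, at 18 CPM (13.9 to 23) in C-ON and 19.5 CPM (16.9 to 22.3) in FMC_new, with overlapping intervals. A UMI was found in 6.6% of cells in C-ON and 6.83% in FMC_new, close to the 5.87% and 5.19% of the deeper oligodendrocyte-like cells. With each cell thinned to 1000 UMIs, the shares were 2.51% and 2.27% in T cell-like and 0.716% and 0.295% in oligodendrocyte-like cells. Its level was also 11.3 and 15.6 CPM in NK cell-like and 7.36 and 6.61 CPM in oligodendrocyte-like cells, so T cell-like cells were above oligodendrocyte-like cells by under 4 times in both libraries. Kcna3 was counted in ILC2-like cells too. The fold of T cell-like over ILC2-like cells was 0.396 (0.147 to 1.5) in C-ON and 1.87 (0.632 to 9.15) in FMC_new. Kcna5 exceeded the limit in pituitary-like cells (19.1 CPM) and lay at 4.02 and 11.2 CPM in tumor-like cells, on both sides of it. The accessory Kcnab2, which binds the Kcna pores from inside the cell, was at 38.1 CPM in C-ON and 39.4 CPM in FMC_new in T cell-like cells. NK cell-like cells had 47.3 and 52.8 CPM. Kcnab1, of the same kind, was at 40.2 and 34.6 CPM in tumor-like, 19.9 and 26.1 CPM in oligodendrocyte-like, 29.4 CPM in astrocyte-like and 18 CPM in pituitary-like cells.

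The Kcnq genes, whose channels carry the slow M-type current that damps excitability, differed in the classes that held them. Kcnq3 was at 266 CPM (261 to 270.3) in C-ON and 274 CPM (266 to 282) in FMC_new in oligodendrocyte-like cells, with overlapping intervals, at 169 CPM (147 to 193) in C-ON and 124 CPM (116 to 132) in FMC_new in tumor-like cells and at 112 CPM (90.4 to 137) in astrocyte-like cells. Kcnq5 was highest in ILC2-like cells, at 489 CPM (354 to 659) in C-ON and 406 CPM (335 to 486) in FMC_new, with a UMI in 67.9% of cells in C-ON and 62.1% in FMC_new, and the intervals overlapped. It was counted in 5 further lymphoid or myeloid classes, NK cell-like (249.98 and 124 CPM), B cell-like (121 and 128 CPM), plasma cell-like (99.7 and 188 CPM), T cell-like (75.6 and 104 CPM) and neutrophil-like cells. In tumor-like cells Kcnq5 was at 76.4 and 54.2 CPM, and in oligodendrocyte-like cells at 0.98 and 1.89 CPM (a UMI in 0.79% and 1.31% of cells), so the order of Kcnq3 and Kcnq5 between oligodendrocyte-like and T cell-like cells was opposite in both libraries.

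The Kcnh genes encode channels of the ether-a-go-go type, which shape firing and the resting potential of excitable cells. Kcnh5 was called higher in tumor-like cells, at 59.5 CPM (46.8 to 74.8) in C-ON and 43.8 CPM (39.2 to 48.8) in FMC_new, and its fold over pituitary-like cells in FMC_new was 17.6 (11.9 to 26.9). Kcnh7 was called higher in pituitary-like cells, at 40.6 CPM (37 to 44.6), with a fold of 6.36 (4.72 to 8.75) over tumor-like cells. Kcnh8 was shared by both classes, at 91.7 CPM in C-ON and 84.9 CPM in FMC_new in tumor-like and 113 CPM in pituitary-like cells. Kcnh2, the channel that repolarizes the heart, was at 27.3 CPM in pituitary-like and 18.8 CPM in astrocyte-like cells. Kcnh1 was called higher in astrocyte-like cells of FMC_new on 25 UMIs, at 29.4 CPM (19 to 43.4). Kcnh6 was counted in ILC2-like (22.8 and 20.8 CPM) and pituitary-like cells (12.7 CPM).

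Kcnb2, a delayed rectifier of neurons and endocrine cells, was at 103 CPM (97.5 to 109) in pituitary-like cells of FMC_new, 113 CPM in C-ON and 91.8 CPM in FMC_new in fibroblast-like cells and 63.6 and 41.7 CPM in tumor-like cells. The pituitary-like level lay between those of fibroblast-like cells in the 2 libraries. Of the Kcnc genes, which encode fast channels, Kcnc2 was counted in astrocyte-like cells (15.3 CPM) and Kcnc4 in astrocyte-like (10.6 CPM) and pituitary-like cells (10.7 CPM). Kcng2 and Kcns3, subunits that modify the Kcnb pores and form no channel alone, were counted in pituitary-like (11.5 CPM) and astrocyte-like cells (11.8 CPM).

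Of the 8 channels opened by calcium or sodium, 6 were counted in at least 1 class (background 54.6%), 5 of them in astrocyte-like cells (background 41.8%). Kcnma1, the large-conductance pore opened by calcium and voltage, was at 227 CPM (201 to 255) in C-ON and 182 CPM (172 to 192) in FMC_new in tumor-like cells, 150.5 CPM (126 to 179) in astrocyte-like and 150.3 CPM (143 to 158) in pituitary-like cells of FMC_new. The intervals of the last 2 classes overlapped. In microglia-like cells Kcnma1 was at 60.3 CPM (47.1 to 76) in C-ON and 70.9 CPM (64.8 to 77.4) in FMC_new, with overlapping intervals, against 7.62 CPM in C-ON and 20.5 CPM in FMC_new in oligodendrocyte-like cells. Kcnmb2 and Kcnmb4, accessory subunits that change the gating of Kcnma1, were found in different classes. Of the 14 classes, Kcnmb2 was counted in pituitary-like cells alone, at 149 CPM (142 to 156) with a UMI in 53% of cells against 0.245% of T cell-like cells of the same library, and its fold over fibroblast-like cells was 20.3 (12.8 to 34.3). Kcnmb4 was at 72.4 CPM (58.2 to 89) in C-ON and 44.1 CPM (39.4 to 49.1) in FMC_new in tumor-like cells, 51.2 CPM in pituitary-like and 34.5 and 31.9 CPM in plasma cell-like cells. Exons of Kcnmb4 overlap those of 2 opposite-strand RNAs, of which Kcnmb4os2 was at 25.3 CPM in pituitary-like cells.

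Kcnn4, the intermediate-conductance calcium-activated channel that activated lymphocytes use to keep calcium flowing in, was, with Kcnq5, one of the 2 members with the highest levels in T cell-like cells (chr7:24370263-24386690, + strand, GRCm38). It was at 88.5 CPM (79 to 98.9) in C-ON and 96.3 CPM (90.5 to 102) in FMC_new, with a UMI in 27.1% of cells in C-ON and 26.6% in FMC_new, and the intervals overlapped. Other lymphoid classes had it as well, with 68.3 and 76.3 CPM in ILC2-like, 82.8 and 63.9 CPM in plasma cell-like and 18 and 28.4 CPM in NK cell-like cells. Oligodendrocyte-like cells had 0.174 and 0.472 CPM, with a UMI in 0.132% and 0.388% of cells. The fold of T cell-like over ILC2-like cells was 1.3 (0.589 to 3.56) in C-ON and 1.26 (0.829 to 2.02) in FMC_new, so these 2 classes did not differ beyond counting error.

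The small-conductance Kcnn2 and Kcnn3, which follow a calcium rise with a lasting hyperpolarization, were highest in astrocyte-like cells. Kcnn2 was at 116 CPM (94.6 to 142) there, 59.5 CPM in C-ON and 35.4 CPM in FMC_new in tumor-like and 23.8 CPM in pituitary-like cells. Kcnn3 was called higher in astrocyte-like cells on 27 UMIs (31.7 CPM (20.9 to 46.2)), with a fold of 4.25 (2.65 to 6.62) over pituitary-like cells. Kcnt1, opened by sodium, was also called higher there on 27 UMIs (31.7 CPM (20.9 to 46.2)), with a fold of 8.64 (3.94 to 20.9) over fibroblast-like cells. Its relative Kcnt2 was at 38.6 CPM in C-ON and 24.2 CPM in FMC_new in tumor-like and 38.5 and 28.6 CPM in fibroblast-like cells. The accessory Kcne1l and Kcnmb1 were called higher in the same astrocyte-like cells on 21 and 14 UMIs (24.7 and 16.5 CPM), so all 5 members called higher in this class rest on 14 to 27 UMIs in 212 cells of 1 library. With each cell weighted alike, Kcnt1 and Kcne1l were called again, Kcnh1, Kcnn3 and Kcnmb1 were not, and Kcns3 was called in addition. Kcne4, a small subunit that damps Kcna pores, was called higher in fibroblast-like cells (14.8 CPM in C-ON and 19.2 CPM in FMC_new).

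Kcnq1ot1, a long noncoding RNA transcribed opposite to Kcnq1 and known from imprinting, was counted in all 14 classes. It was at 169 CPM in C-ON and 96.2 CPM in FMC_new in tumor-like, 66.8 CPM in C-ON and 55.3 CPM in FMC_new in oligodendrocyte-like and 45.7 CPM in C-ON and 46.7 CPM in FMC_new in T cell-like cells. It encodes no channel, and Kcnq1 itself was under the limit in every class.

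The channels with the highest levels in oligodendrocyte-like cells were also found in T cell-like cells, at a higher share of their oligodendrocyte level in C-ON than in FMC_new. In T cell-like cells, Kcna1 was at 14% in C-ON and 0.721% in FMC_new of its level in oligodendrocyte-like cells, Kcnq3 at 13.4% in C-ON and 2.6% in FMC_new, Kcnj10 at 10.6% in C-ON and 1.94% in FMC_new, Kcnk13 at 12% in C-ON and 1.2% in FMC_new and Kcna6 at 15.9% in C-ON and 1.61% in FMC_new. A set of 4 genes of oligodendrocytes that are no potassium channels was read beside them. Mog, a myelin protein, was at 12.9% in C-ON and 1.08% in FMC_new, Opalin at 18.1% in C-ON and 1.43% in FMC_new, Hcn2 at 11.4% in C-ON and 0.841% in FMC_new, and the gap junction gene Gjb1 at 10.9% in C-ON and 1.39% in FMC_new. In C-ON 4 of the 5 channels thus lay within the range of the other genes (10.9% to 18.1%) and Kcnj10 just under it. In FMC_new, where that range was 0.841% to 1.43%, Kcnq3, Kcnj10 and Kcna6 lay above it, Kcnk13 within it and Kcna1 under it. This comparison was chosen after the data had been seen.

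The picture differed in microglia-like and tumor-like cells. In microglia-like cells, Kcnk13 was at 57.1% in C-ON and 51.5% in FMC_new of its oligodendrocyte level, while Mog was at 9.19% in C-ON and 1.09% in FMC_new and Kcna1 at 9.34% in C-ON and 1.11% in FMC_new. In tumor-like cells all 5 channels were above the range of the other oligodendrocyte genes in both libraries. Kcnq3 was at 63.6% in C-ON and 45% in FMC_new, Kcna6 at 43.9% in C-ON and 33.9% in FMC_new, Kcnj10 at 42.4% in C-ON and 27.2% in FMC_new, Kcnk13 at 32.4% in C-ON and 24.4% in FMC_new and Kcna1 at 29.3% in C-ON and 21.2% in FMC_new. The other 4 genes there ran from 8.13% (Opalin) to 15.4% (Gjb1) in C-ON and from 3.81% (Hcn2) to 5.98% (Opalin) in FMC_new. In astrocyte-like cells of FMC_new, Kcnj10 was at 46.9% and Kcnq3 at 40.7%, against 4.69% for Mog and 9.18% for Opalin, while Kcna1 (8.29%), Kcna6 (7.64%) and Kcnk13 (6.93%) lay in the range of those genes.

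**Figure D3:**
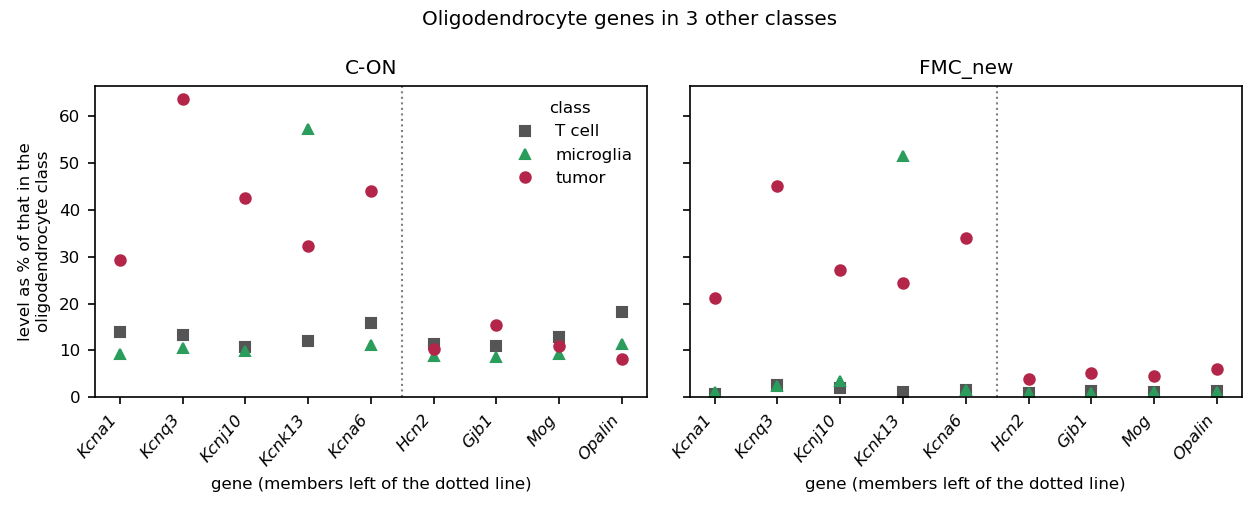
Level of 5 channel genes (left of the dotted line) and 4 other genes of oligodendrocytes in T cell-like, microglia-like and tumor-like cells, as percent of the level in oligodendrocyte-like cells of the same library (linear axis, 1 panel for each library). In tumor-like cells all 5 channels lie above the other genes in both libraries, in T cell-like cells none does in C-ON and 3 do in FMC_new, and in microglia-like cells Kcnk13 stands at 57.1% and 51.5%.

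The oligodendrocyte-like class held 4 clusters. Cluster 0 was led by Ptgds and Opalin, cluster 1 by genes such as Hopx and Nkx2-9, cluster 2 by Serpina3n, C4b and the interferon-response gene Iigp1, and cluster 11 by Plcl1 and Ctnna3. Kcnq3 and Kcnj10 were highest in cluster 11. Kcnq3 was at 693 CPM (673 to 714) in C-ON and 605 CPM (570.1 to 642) in FMC_new there, against 177 and 182 CPM in cluster 0, 194 and 209 CPM in cluster 1 and 233 and 272 CPM in cluster 2 (C-ON and FMC_new in turn). Kcnj10 was at 433 CPM (418 to 449.9) in C-ON and 499 CPM (467 to 532) in FMC_new in cluster 11, and between 199 and 266 CPM in the other 3 clusters of both libraries. No interval of cluster 11 overlapped that of another cluster for either gene.

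Kcna1 had another pattern, with the lowest level in cluster 1, at 196 CPM (189.97 to 203) in C-ON and 216 CPM (202 to 229.6) in FMC_new. It was at 354 and 385 CPM in cluster 0, 342 and 450.1 CPM in cluster 2 and 366 and 389.8 CPM in cluster 11. Kcna6 was lowest in cluster 1 as well (45.4 and 48.2 CPM) and highest in cluster 11 (95.5 and 114 CPM). Kcnk13 was more even, with 116 and 107 CPM in cluster 0, 122 and 109 CPM in cluster 1, 130.4 and 116 CPM in cluster 2 and 177 and 175 CPM in cluster 11. Kcnma1 was low in the class as a whole and highest in cluster 2, at 24 CPM (20.6 to 27.8) in C-ON and 38.6 CPM (34.3 to 43.4) in FMC_new, against 4.62 and 7.67 CPM in cluster 0 and 2.41 and 2.9 CPM in cluster 1. FMC_new had relatively more cells of cluster 2 (872 of 2060) than C-ON (821 of 5319). Kcnma1 was higher in FMC_new both in the whole class and within cluster 2. The part of the cluster shares in the difference of the whole class was not tested.

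**Figure D4:**
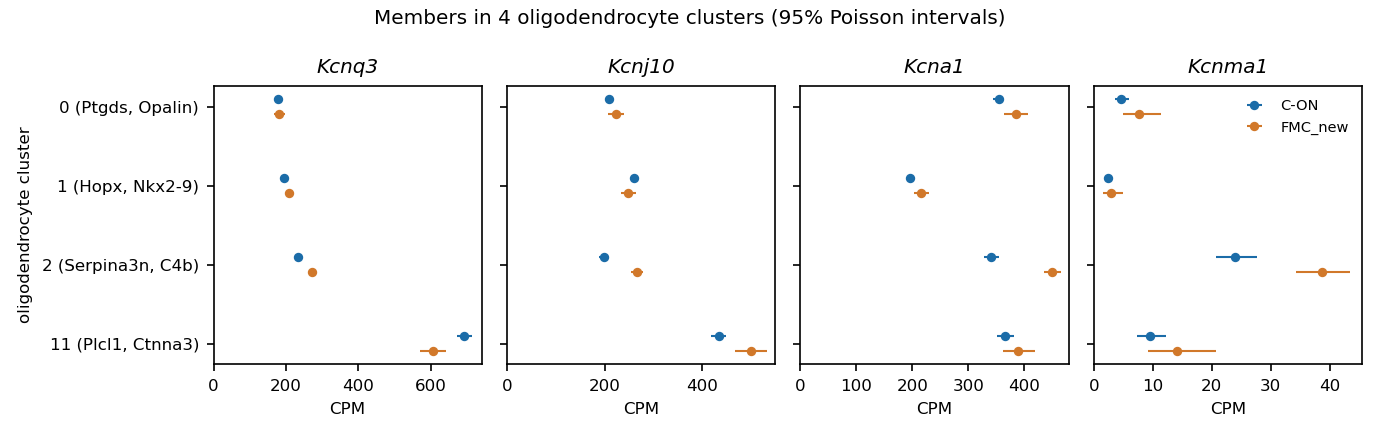
Level in CPM of Kcnq3, Kcnj10, Kcna1 and Kcnma1 in the 4 oligodendrocyte-like clusters of each library, with exact 95% Poisson intervals as bars. Kcnq3 and Kcnj10 are highest in cluster 11, Kcna1 is lowest in cluster 1 and Kcnma1 is highest in cluster 2, in both libraries.

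The tumor-like class held cluster 8, led by Cspg5, Lhfpl3, Pdgfra and Ptprz1, with 184 cells of C-ON and 876 of FMC_new, and cluster 18, with 30 and 482 cells. Bcan and Neu4 were among the leading genes of cluster 18, as were the immunoglobulin genes Igkv12-41 and Igkv9-124. Its cells had a median of 6071 UMIs in C-ON and 2169.5 in FMC_new, against 5275 and 6231.5 in cluster 8, so it was the shallower cluster in FMC_new and not in C-ON. Kcnd2 was at 1146 CPM (1082 to 1213) in C-ON and 1222 CPM (1193 to 1251) in FMC_new in cluster 8 and 319 CPM (245 to 408) in C-ON and 349.8 CPM (324 to 378) in FMC_new in cluster 18, so that it was lower in cluster 18 in both libraries with no overlap. Kcnip1 (184 and 179 CPM against 30.4 and 41.3 CPM), Kcnip3 (280.3 and 246 CPM against 127 and 82.5 CPM), Kcnma1 (262 and 213 CPM against 40.5 and 86.8 CPM) and Kcnj16 (54.5 and 48.5 CPM against 5.06 and 16.1 CPM) were lower there too. Kcnj10 and Kcna1 differed less. Kcnj10 was at 111 and 81.7 CPM in cluster 8 and 106 and 57.3 CPM in cluster 18, and Kcna1 at 89.9 and 78.6 CPM and 60.8 and 76.6 CPM. The 6 plasma cell markers summed to 2534 and 2158 CPM in tumor-like cells, and their part in these differences was not tested.

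Gpr17 marks precursors that commit to the oligodendrocyte fate, and tumor-like cells with and without a Gpr17 UMI were compared, a split chosen after the data had been seen. In C-ON 103 cells had one and 111 had none, and in FMC_new 566 and 792. The cells with one were deeper, with medians of 5596 against 4809 UMIs in C-ON and 6099.5 against 4287 in FMC_new, and the part of depth in the differences was not tested. Kcnd2 was at 1021 CPM (943 to 1104) with and 1008 CPM (931 to 1091) without Gpr17 in C-ON and 1056 CPM (1023 to 1090.3) and 957 CPM (926 to 988) in FMC_new, so the intervals overlapped in C-ON and did not in FMC_new. Kcnj16 was higher in cells with Gpr17 in both libraries, at 59.4 CPM (41.8 to 81.9) against 33.9 CPM (21 to 51.8) in C-ON, where the intervals overlapped, and 49 CPM (42.1 to 56.8) against 32.5 CPM (27 to 38.6) in FMC_new, where they did not. Kcna2 (35.3 against 25.8 CPM in C-ON and 25.6 against 10.05 CPM in FMC_new) and Kcnmb4 (88.3 against 56.5 CPM and 53.99 against 34.8 CPM) were likewise higher in cells with Gpr17, with intervals that overlapped in C-ON alone. So was Kcnip3 (275 against 237 CPM and 222 against 190 CPM). Some other members were lower in cells with Gpr17, and the members named for this split are a selection. Kcnq5 hardly differed in C-ON, at 75.5 CPM (55.4 to 100.3) against 77.4 CPM (57.1 to 102.7). In FMC_new it was at 35.5 CPM (29.7 to 42.2) against 71.6 CPM (63.4 to 80.5). Kcnma1 (189 against 265 CPM and 168 against 194 CPM) and Kcnh5 (54.6 against 64.5 CPM and 38.3 against 48.9 CPM) had overlapping intervals in both libraries. Kcnj10 went opposite ways in the 2 libraries, with 94.7 CPM (72.1 to 122) against 126 CPM (99.5 to 157) in C-ON and 94.8 CPM (85 to 105) against 57.7 CPM (50.4 to 65.8) in FMC_new, and the intervals overlapped in C-ON and did not in FMC_new.

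Of the T cell-like clusters, cluster 3 was led by genes such as Gzmk, Il7r and Cd8b1, cluster 7 by Tnfrsf4, Ctla4 and Foxp3, and cluster 10 by Xcl1, Cd8a and Pdcd1. Kcnn4 was highest in cluster 7, at 135 CPM (109 to 165) in C-ON and 131 CPM (118 to 144) in FMC_new. It was at 89.4 and 86.8 CPM in cluster 3 and 58 and 77.4 CPM in cluster 10. Kcnq5 had its lowest level in cluster 3 (35.4 and 42.3 CPM) and its highest in cluster 10 (125 and 160.3 CPM), with 101 and 124 CPM in cluster 7. Kcna3 was at 26.4 and 25.2 CPM in cluster 7, 15.7 and 16.6 CPM in cluster 3 and 16.6 and 17.8 CPM in cluster 10, on few UMIs. Kcnab2 was somewhat lower in cluster 10 (28.6 and 32.1 CPM) than in cluster 3 (42.2 and 44.7 CPM). The order of clusters was the same in both libraries for Kcnn4 and Kcnq5.

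The pituitary-like cells of FMC_new fell into cluster 16, led by genes such as Pomc and Tbx19 of corticotropes and melanotropes (603 cells), cluster 22, led by Gh and Prl (356 cells), and cluster 27, led by Chga, Pcsk2 and Oacyl (227 cells). Several channels were shared by the 3 clusters. Kcnd2 was at 335, 299.8 and 159 CPM in clusters 16, 22 and 27, Kcnma1 at 109, 216 and 135 CPM, Kcnmb2 at 130.3, 199 and 97.2 CPM and Kcnk2 at 143, 107 and 79.8 CPM. Others stood out in 1 cluster. In the Gh and Prl cluster, Kcnh8 was at 222 CPM (208 to 237), Kcnd3 at 45.7 CPM (39.3 to 52.9) and Kcnab1 at 45 CPM (38.6 to 52.1), each above both other clusters with no overlap, while Kcnh7 was low at 5.84 CPM (3.7 to 8.77). In the Pomc and Tbx19 cluster, Kcnip4 was at 87 CPM (79.4 to 95.2) and Kcnh7 at 60.1 CPM (53.8 to 66.9). In cluster 27, Kcnk3 was at 82.6 CPM (69.8 to 97.1) and Kcnj6 at 113 CPM (97.9 to 129.7), against 5.07 and 38 CPM in cluster 16. Kcnh1, counted in astrocyte-like cells, was at 24.7 CPM in cluster 27 and at 0.905 and 0 CPM in the other two. With 1 library, these differences have no check between samples.

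**Figure D5:**
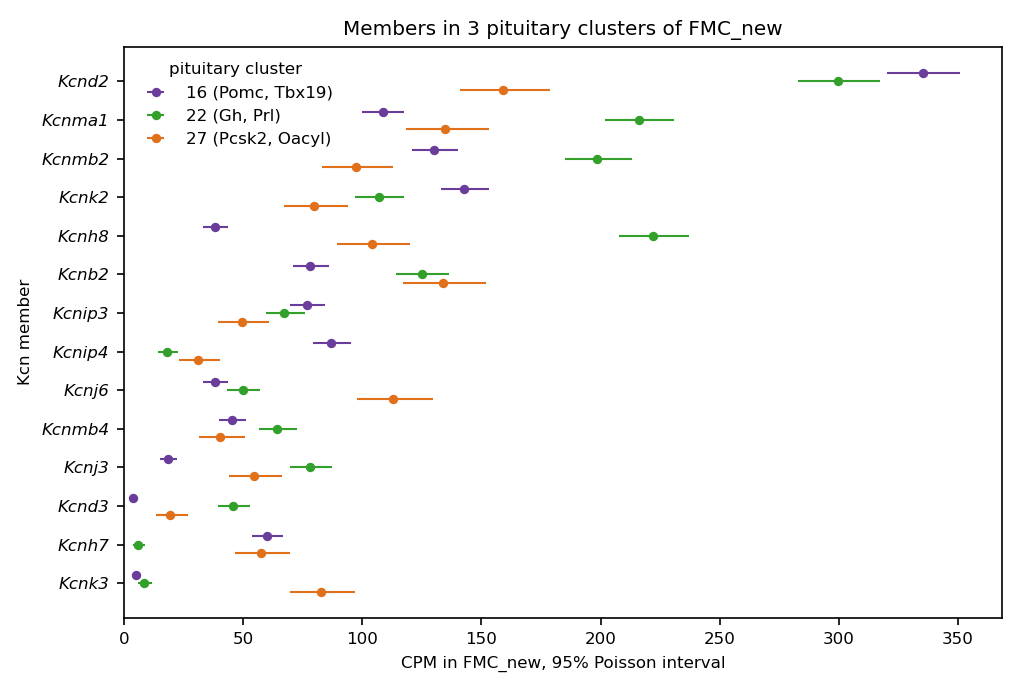
Level in CPM of 14 members in the 3 pituitary-like clusters of FMC_new, led by Pomc and Tbx19 (16), Gh and Prl (22) and Pcsk2 and Oacyl (27), with exact 95% Poisson intervals as bars. Kcnd2 is above 100 CPM in all 3 clusters, while Kcnh8 is highest in the Gh and Prl cluster (222 CPM) and Kcnk3 in cluster 27 (82.6 CPM).

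Genes that act beside the potassium channels, without a Kcn symbol, were read as a list of 45. Of these, 25 were at 10 CPM or more in astrocyte-like cells (background 41.8%), 24 in tumor-like (37.4%), 19 in pituitary-like (37.2%), 19 in fibroblast-like (33.2%), 13 in oligodendrocyte-like (30.9%), 8 in microglia-like (30.3%) and 6 in T cell-like cells (30.4%). The same backgrounds apply to the parts of this list given below. Gja1, Aqp4 and Atp1b2 of this list are also among the markers that named the astrocyte-like class. Their presence in that class is therefore no independent result. Of 12 potassium pumps and cotransporters, 9 were counted in each of tumor-like, astrocyte-like, pituitary-like and fibroblast-like cells and 5 in each of oligodendrocyte-like, microglia-like and T cell-like cells. Slc12a2, which brings in potassium with sodium and chloride, was at 678 and 733 CPM in oligodendrocyte-like cells. All 5 gap junction genes of glia were counted in astrocyte-like cells, 3 in tumor-like and 3 in oligodendrocyte-like cells. Gja1, the main connexin of astrocytes, was at 527 CPM in astrocyte-like cells, and Gjc3 was at 313 and 291 CPM in oligodendrocyte-like and 269.6 and 252 CPM in tumor-like cells.

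Of the 6 membrane partners of glia, 5 were counted in astrocyte-like, 4 in oligodendrocyte-like and 3 in tumor-like cells. Hepacam, an adhesion protein that anchors channels at glial junctions, was at 338 and 366 CPM in oligodendrocyte-like, 248 CPM in astrocyte-like and 150.5 and 157 CPM in tumor-like cells. The water channel Aqp4 was at 225 CPM in astrocyte-like and 26.6 and 24.6 CPM in tumor-like cells. Hcn2, a cation channel opened by hyperpolarization, was at 943 CPM in C-ON and 825 CPM in FMC_new in oligodendrocyte-like cells. In T cell-like cells it was at 107 CPM in C-ON and 6.93 CPM in FMC_new. Hcn2 was itself among the oligodendrocyte genes set beside the channels above. Of 8 voltage-gated sodium channel genes, 5 were counted in tumor-like, 4 in pituitary-like, 2 in astrocyte-like, 1 in microglia-like and 0 in oligodendrocyte-like and T cell-like cells. In tumor-like cells Scn3a was at 63.6 and 64.3 CPM, Scn2a at 51.5 and 47.3 CPM and Scn1a at 38.6 and 29.9 CPM. The neuron markers summed to 92.5 and 101 CPM there, with 2 of 7 at 10 CPM or more.

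The remaining 42 members were under 10 CPM in every class in at least 1 of the libraries that hold it. Those reported here by name were Kcna10, Kcna4, Kcna7, Kcnab3, Kcnab3os, Kcnc1, Kcnd3os, Kcne1, Kcne2, Kcne3, Kcnf1, Kcng1, Kcng3, Kcng4, Kcnh3, Kcnh4, Kcnj1, Kcnj11, Kcnj12, Kcnj13, Kcnj14, Kcnj15, Kcnj4, Kcnj5, Kcnj9, Kcnk15, Kcnk16, Kcnk18, Kcnk4, Kcnk7, Kcnk9, Kcnmb3, Kcnmb4os1, Kcnn1, Kcnq1, Kcnrg, Kcns1, Kcns2, Kcnu1, Kcnv1 and Kcnv2. By type, the 42 were 9 of 15 inward rectifiers, 6 of 14 tandem-pore, 16 of 40 voltage-gated, 2 of 8 calcium- or sodium-activated and 6 of 17 accessory members, and 3 of 5 noncoding or opposite-strand RNAs.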

How the data were processed

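Single-cell RNA sequencing of the optic nerve of Nf1-OPG mice was analysed for 2 droplet libraries, C-ON and FMC_new. Cell Ranger was used by the authors to align reads to mm10 and to count UMIs of each gene in each barcode, and the deposited values are these raw counts, whole numbers with no normalization, in barcodes called as cells. The text of the series names version 7.2.0 of Cell Ranger, and the methods of the study name an earlier one. Whether intronic reads were counted is not given in the sources used here. The libraries were made with a kit that reads the start of transcripts, and counts were not divided by gene length, so levels are compared between classes and libraries and not between genes as amounts of protein or RNA per length. C-ON held 85101211 UMIs in 10845 barcodes and FMC_new 129113325 UMIs in 21341 barcodes.

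Cells with 500 to 5000 genes, 500 to 20000 UMIs and at most 5% mitochondrial UMIs were kept, as in the methods of the study. They were log-normalized, integrated with CCAIntegration and clustered with Seurat 5.3.0 under R 4.3.3 on 2000 variable features without the Kcn genes, 30 components and a resolution of 0.8, the last 2 of which the study does not state. A cluster took the name of a class when at least 3 of its markers were found in at least 20% of the cells at 2 or more times the mean of the clusters. How clusters with markers of more than 1 class were treated was settled once their leading genes had been seen. Scrublet called 1 of 8834 cells of C-ON and 0 of 16818 cells of FMC_new as doublets, too few to have worked, so no doublets were removed, and leaving out cells with at least 5 markers of another class was added as an alternative after the data were seen.

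UMIs were summed by class and library and given as CPM with exact Poisson 95% intervals, and shares of cells with exact Clopper-Pearson intervals, computed with Python 3.11.15, numpy 2.4.6, pandas 2.3.3, scipy 1.17.1 and scanpy 1.11.5, with plots by matplotlib 3.10.9. The steps that make the counts were tested on simulated data. For a class with no UMI, a floor of 3 counts was used in folds. Members counted in at least 1 class are named with values and the others by name only, except that a few members are not reported here. The members, the gene lists and the limits were chosen with earlier results of these data known. Gene positions are those of GENCODE M21 on GRCm38, matched by gene identifier for 99 of 99 members, and promoters are those of RefSeq on GRCm38.p6. Alternatives were SCTransform in place of log normalization, resolutions of 0.4 and 1.2, Kcn genes kept among the variable features, the doublet calls removed, a mitochondrial limit of 10%, the mean of CPM per cell, limits of 5 and 20 CPM, at least 5 UMIs, folds of 2 and 8, cells thinned to 1000 UMIs, and each library alone.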

Additional observations from a re-analysis of the deposited data

Results flagged for a closer look

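Members were also read in clusters that enter no comparison of the report, and a level was picked out there when it exceeded both the level that 3 counts give in that cluster and the level of the member in every named class of the same library by at least 4 times. The series labels hold no control group for these levels.

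Cluster 34, with 35 cells of C-ON and 20 of FMC_new, was assigned to no class and was led by Avp, Snhg11, Stmn2 and Gad1, genes of neurons. Kcnc2, a fast channel known from interneurons, was at 330.3 CPM (266 to 405) there in C-ON and at 226 CPM (160 to 308) in FMC_new, and had a UMI in 71.4% and 60.0% of its cells. The highest named class reached 11.3 and 15.3 CPM. Kcnc2 was thus high in the same cluster of both libraries.

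Cluster 26, with 287 cells of FMC_new and 10 of C-ON, was led by Mia, Cyp2f2, Folr1 and Krt18 and was assigned to no class. In FMC_new it had Kcnk1 at 384 CPM (354 to 416), with a UMI in 72.8% of cells, and Kcnc2 at 68.5 CPM (56.2 to 82.6). The highest named class reached 72.0 CPM for Kcnk1 and 15.3 CPM for Kcnc2.

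The 19 cells of C-ON in cluster 27, too few for the pituitary-like class to be counted in that library, had Kcnk3 at 367 CPM (276 to 479), the related acid-sensitive channel Kcnk9 at 149.5 CPM (93.7 to 226) and Kcnmb2 at 74.8 CPM (37.3 to 134), where 3 counts give 20.4 CPM. The highest named class of C-ON had 16.1, 1.70 and 1.48 CPM of these members. In FMC_new the same cluster had 82.6 CPM of Kcnk3, 21.9 CPM of Kcnk9 and 97.2 CPM of Kcnmb2.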

How the results depend on the processing

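Several counts changed with the library or the limit used. With C-ON alone or FMC_new alone, the members called higher in tumor-like cells numbered 3 to 16 (3 with both), those in oligodendrocyte-like and microglia-like cells 0 to 1 (0 with both, then Kcna1 and Kcnd1), and the members counted in T cell-like cells 7 to 11 (6 with both). In C-ON alone the astrocyte-like and pituitary-like classes gave no value. At 2 times in place of 4 times every other class, 6 members were called higher in tumor-like, 3 in oligodendrocyte-like (Kcnj10, Kcna1 and Kcna6), 8 in astrocyte-like, 2 in microglia-like (Kcnk6 and Kcnd1) and 5 in pituitary-like cells, and at 8 times 3 in astrocyte-like and 1 in pituitary-like cells. At 5 CPM, 13 members were counted in oligodendrocyte-like, 13 in microglia-like and 11 in T cell-like cells, and at 20 CPM 19 in pituitary-like cells. With a mitochondrial limit of 10%, pituitary-like cells had 14 members counted and 1 called higher, as 22 cells of C-ON entered the count. A resolution of 0.4 gave 10 members in microglia-like cells, and the mean of CPM per cell 3 called higher in astrocyte-like cells. The causes of these 2 changes were not tested. Leaving out cells with at least 5 markers of another class removed 51.9% and 45.3% of tumor-like cells in C-ON and FMC_new and left each count within 1.5 times, as did the remaining alternatives for every count. Equal counts did not always hold the same members, as at a resolution of 0.4 Kcnh1 and Kcnmb1 were no longer called higher in astrocyte-like cells and Kcns3 and Kcnn2 were, and under SCTransform Kcnh7 was no longer called in pituitary-like cells. Levels of members moved by more than 1 SD between the libraries, or outside the counting interval where 1 library held the class, for 21 of 44 under SCTransform. The same held for 16 of 57 with the mean per cell, 16 of 55 at a resolution of 0.4 and 13 of 57 at 1.2. It held for 10 of 57 with mixed cells left out, 10 of 57 at the mitochondrial limit of 10% and 7 of 57 with Kcn genes kept. In C-ON alone 22 of 29 moved, and in FMC_new alone 5 of 57. With 2 libraries, these last 2 counts follow from the share of the UMIs of a class that each library holds. They therefore cannot show how stable the level of a member is. SCTransform gave no astrocyte-like class. No paired analysis was possible because the 2 libraries belong to 1 group and there is no contrast to pair. With each cell thinned to 1000 UMIs, the shares of all 57 members were lower, as removing UMIs cannot raise the share in the same cells. Depth limits members on few UMIs, and 42 members under the limit may be present at lower levels.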

Other observations

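Cluster 34, the cluster led by Avp and genes of neurons, held several members that tumor-like or pituitary-like cells also had. Kcnip4 was at 541 CPM in C-ON and 237 CPM in FMC_new, Kcnma1 at 323 and 295 CPM, Kcnh8 at 301 and 289 CPM and Kcnh5 at 90.7 and 69.4 CPM. Kcnh5 was thus higher there than in tumor-like cells, the class in which it was called higher among the named classes. Cluster 26 of FMC_new, led by Mia and Folr1, had Kcnma1 at 306 CPM, Kcnk2 at 118 CPM and Kcnab1 at 112 CPM. Cluster 20, led by genes such as Grap2 and Themis and assigned to no class, had Kcnq5 at 467 CPM in C-ON and 399 CPM in FMC_new, above the 3 T cell-like clusters in both libraries.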
